A study of Mus musculus with 8 samples.

Results

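Toll-like receptor and NF-κB feedback genes of the mouse retina were followed through 14 days in 75% oxygen. The genes are *Tlr2*, *Tlr4*, *Cd14*, *Ly96*, *Myd88*, *Tollip*, *Nfkbia*, *Nfkb1*, *Rela* and *Bcl3*, chosen by name, and every probe set annotated to 1 of them alone was taken. A probe set is a group of short probes that together measure a transcript, mostly near its 3′ end. The array annotation gave 17 such probe sets for 9 of the 10 genes, out of 45037 probe sets tested, which name 18193 genes, and *Nfkb1* was not analysed here because no probe set was annotated to it. *Nfkbia* had 5 probe sets, *Tlr4* had 4, *Tollip* had 2 and the other 6 genes had 1 each. C57BL/6J mice, labelled as adults of 80 to 120 days and kept in dim cyclic light, stayed in normal air (control, day 0) or spent 3, 7 or 14 days in 75% oxygen, with 2 arrays for each of the 4 times. Retinas of both sexes were pooled by time, per the study's methods. No source used here says that both arrays of a time had their own pool, and each p-value therefore reflects array-to-array spread, which may be technical. The deposited values are on the log2 scale and have a median of 0 over the 8 arrays for every probe set. They give differences between arrays and no level, so genes cannot be ranked by abundance and the presence of retinal markers could not be checked.

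Toll-like receptors recognise molecules of microbes and of damaged cells, and in the retina they are best known from microglia, with some members also described in Müller glia and pigment epithelium. The receptor encoded by *Tlr4* works with an extracellular partner, encoded by *Ly96*, and with CD14, which hands over the ligand. MyD88 couples most of these receptors to kinases that free NF-κB, a dimer of Rel proteins such as RelA, from the inhibitor IκBα, encoded by *Nfkbia*. NF-κB in turn switches on *Nfkbia* and *Bcl3*, so the pathway limits itself, while Tollip damps signaling near the receptor.

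Sites in the start regions of the members are printed because *Nfkbia* and *Bcl3* are textbook targets of NF-κB. RefSeq windows of 300 bases (250 before and 50 from the annotated start on, build GRCm38.p6) were available for 6 of the 10 genes. The classical κB consensus, searched on both strands, matched in 3 of the 6 windows, those of *Nfkbia*, *Bcl3* and *Tlr2*, and in 4.51% of all 32851 windows. With the start base counted as 0, the first base of the match lay at -29 in *Nfkbia* (chr12:55492657-55492686, minus strand), at 2, just past the start, in *Bcl3* (chr7:19822734-19822763, minus strand), and at -172 in *Tlr2* (chr3:83841761-83841790, minus strand). In *Tlr2* a further match overlapped the printed one at -173 and another lay at -8. Each line gives 30 bases, 5′ to 3′ along the gene, with the match in capitals.
Nfkbia: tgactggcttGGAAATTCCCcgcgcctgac
Bcl3: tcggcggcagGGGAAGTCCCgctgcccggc
Tlr2: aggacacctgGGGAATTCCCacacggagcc

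The 250 bases before the start of *Nfkbia* (chr12:55492648-55492897, minus strand, GRCm38.p6) are given whole, since this gene had the most probe sets, with the match again in capitals.
Nfkbia promoter: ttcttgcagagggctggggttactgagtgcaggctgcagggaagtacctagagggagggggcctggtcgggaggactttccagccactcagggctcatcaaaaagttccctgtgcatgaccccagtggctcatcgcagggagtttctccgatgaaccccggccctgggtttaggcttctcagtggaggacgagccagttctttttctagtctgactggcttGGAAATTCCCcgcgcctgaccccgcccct
The letters TTCNNNGAA, a pattern bound by STAT factors, were found in the window of *Myd88* alone among the 6, and in 8.3% of all windows. A match of letters is a description and not evidence that a factor was bound.

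On 2 arrays, the second replicates of day 3 and of day 14, RNA ends and several marker lists stood apart from the other 6 arrays, and most member probe sets followed. These 2 arrays are called the outlying arrays here. Over all probe sets they were not the widest. The SD was 0.34 and 0.39 on them, 0.41 on day 3 replicate 1 and on day 7 replicate 2, and 0.19 to 0.25 on the rest. The 3′ minus 5′ difference of *Gapdh*, a measure of RNA integrity and labeling, was 1.19 and 1.43 on these arrays and between -0.32 and 0.12 on the others. Each marker gene is given by 1 probe set, that with the largest SD over these same 8 arrays. This choice favours probe sets that swing between arrays, so marker counts cannot be set against shares of all probe sets. The median of 19 microglia and macrophage genes was 1.26 and 1.13 there against -0.29 to 0.08 elsewhere, with 16 of the 19 at their 2 highest values on these arrays. That of 10 genes of reactive glia was 1.42 and 1.26 against -0.33 to 0.15, with 10 of 10. The bipolar cell genes went the other way, with a median of -0.85 and -0.93 against -0.10 to 0.63 and 5 of 6 at their 2 lowest values, and so did those of Müller cells, with a median of -0.53 and -0.41 against -0.31 to 0.37 and 6 of 9 at their 2 lowest. The median of the 7 monocyte and neutrophil genes did not stand out, at -0.08 and 0.02 against -0.08 to 0.14. Nor did that of 10 rod genes, at -0.30 and -0.36 against -0.36 to 0.12, with 3 at their 2 lowest values. For 9 ganglion and amacrine cell genes it was 0.21 and -0.02 against -0.16 to 0.50. For 9 genes of endothelium and pericytes it was 0.28 and 0.09 against -0.27 to 0.16, with 4 at their 2 highest values. Of the 17 member probe sets, 12 had their 2 highest values on these arrays and 1 had its 2 lowest, where 16.0% and 9.59% of all probe sets did. The 12 belong to 8 genes, as all 5 probe sets of *Nfkbia* are among them with 1 each of *Tlr2*, *Tlr4*, *Cd14*, *Myd88*, *Tollip*, *Rela* and *Bcl3*. The member median was 0.32 and 0.36 there and -0.19 to 0.02 on the other 6. Both of these arrays are second replicates of their times, each with a first replicate that did not show the pattern, so the spread within day 3 and day 14 is wide. The study gives *Gapdh* as a 5′/3′ ratio, in name the inverse of the 3′ minus 5′ difference used here. Its quality measures put the raised ratio on both arrays of the longest exposure and on neither array of the shortest. The deposited values put the raised 3′ minus 5′ difference on 1 array of each. Whether the 2 measures run in the same direction was not tested. The arrays are grouped here as labelled, whether the labels of the day 3 and day 14 arrays are right was not tested, and every difference that involves these times rests on them. In a whole retina, more cells of a type and more RNA per cell cannot be told apart. No gene of lens, cornea or pigment epithelium had its 2 highest or 2 lowest values on the outlying arrays. The median log2 fold of 9 lens genes was 3.32 at day 7 against control, though their median was -2.41 and 2.20 on the control arrays. That of 6 cornea genes was -3.15 at day 3 and -2.12 at day 7, with 5 of 6 lower by 2-fold or more (1.10% and 0.0844% of all probe sets). The part that RNA ends, cell makeup or tissue beside the retina played in the member values was not tested.

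**Figure D1:**
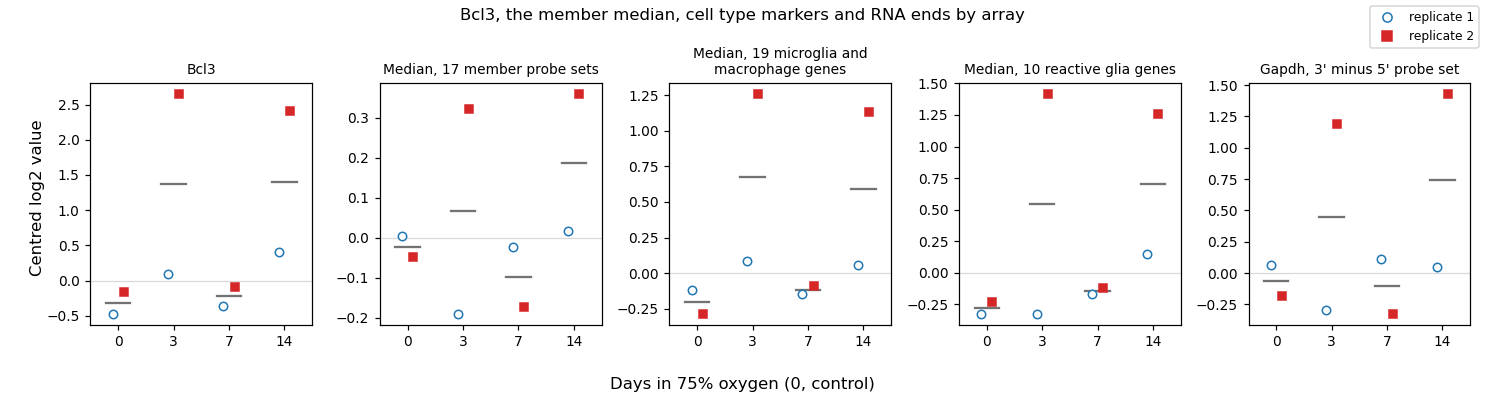
Centred log2 value (y axis) by days in 75% oxygen (x axis) on each of the 8 arrays for *Bcl3*, the median of the 17 member probe sets, the medians of microglia and macrophage genes and of reactive glia genes, and the 3′ minus 5′ difference of *Gapdh* (open circles, replicate 1; squares, replicate 2; bars, mean of 2 arrays). In each of the 5 panels the squares of day 3 and day 14 are the highest points, at 2.65 and 2.41 for *Bcl3*.

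No member passed an adjusted p of 0.05 in limma at any time. Against control, the lowest adjusted p among the 17 probe sets was 0.548 at day 3, 1 at day 7 and 0.623 at day 14, and 0 of the 17 had an unadjusted p under 0.05 in limma, where 10.3% of all probe sets did at day 3, 0.864% at day 7 and 8.27% at day 14. Over all probe sets 0% passed after adjustment. The moderated F over the 3 differences also called 0 members and 0% of all probe sets. The difference from control was positive for 11 of 17 members at day 3 (55.4% of all probe sets), for 5 of 17 at day 7 (49.3%) and for 15 of 17 at day 14 (58.0%). The member median was 0.10, -0.08 and 0.23 on the log2 scale, and that of all probe sets 0.04, -0.00294 and 0.05. Both arrays lay above both control arrays for 3, 1 and 6 of the 17 (24.7%, 12.3% and 27.7% of all probe sets) and below them for 0, 2 and 0 (17.8%, 12.3% and 18.3%). The gap between the 2 arrays of a time was also compared with the difference of their mean from control. This gap was the wider of the 2 for 15 members on day 3, for 12 on day 7 and for 14 on day 14. How often that held over all probe sets was not counted, so these counts do not set the members apart.

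**Figure D2:**
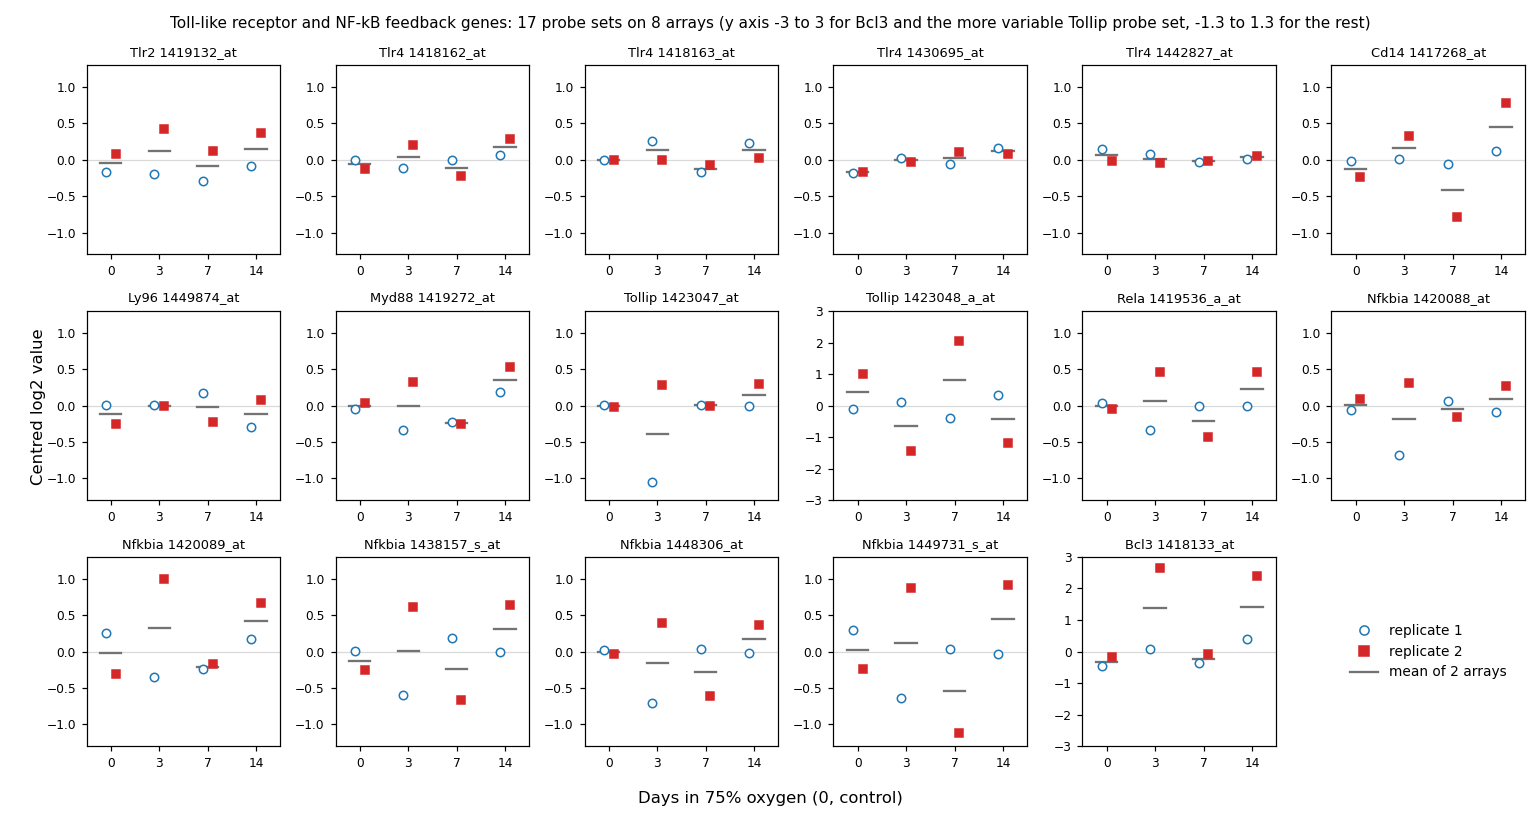
Centred log2 value (y axis) of each of the 17 member probe sets by days in 75% oxygen (x axis), 1 panel a probe set (open circles, replicate 1; squares, replicate 2; bars, mean of 2 arrays). *Bcl3* and *Tollip* 1423048_a_at have a wider axis than the rest, and in 12 panels the squares of day 3 and day 14 are the 2 highest points.

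*Bcl3*, an atypical IκB protein that sits in the nucleus on NF-κB dimers, had the largest SD of the members. Its probe set 1418133_at stood at -0.47 and -0.17 on the control arrays, 0.09 and 2.65 at day 3, -0.36 and -0.09 at day 7, then 0.40 and 2.41 at day 14. The second replicates of day 3 and day 14 were the high ones, but the first replicates of both times also lay above both control arrays, and day 7 overlapped control. The day 14 mean was 1.40 against -0.32 in control, a log2 fold of 1.72 ± 0.90 (standard error, n = 2 arrays each, adjusted p = 0.653 in limma). At day 3 it was 1.69 ± 0.90 (adjusted p = 0.548 in limma) and at day 7 0.09 ± 0.90 (adjusted p = 1). Among all probe sets 0.271% were 2-fold or more higher at day 14 and 0.429% at day 3, and *Bcl3* was the 1 member among them at both times. At day 7 0 members were 2-fold higher or lower, where 0.209% and 0.0844% of all probe sets were. Its SD over the 8 arrays was 1.25, a value at percentile 99.6 of all probe sets. With both outlying arrays left out, the lone day 3 array stood 0.41 and the lone day 14 array 0.72 above the control mean, and with either first replicate left out instead the fold was 2.97 at day 3 and 2.73 at day 14.

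*Nfkbia* encodes IκBα, which holds NF-κB in the cytoplasm and is made anew when NF-κB is active. Its 5 probe sets varied together across the arrays, with Pearson's r between 0.66 and 0.97 in the 10 pairs over 8 arrays, a description since the probe sets share arrays and a transcript. Their median was 0.03 and -0.25 on the control arrays, -0.64 and 0.61 at day 3, 0.04 and -0.61 at day 7, then -0.03 and 0.64 at day 14. On day 3 replicate 2 and day 14 replicate 2 all 5 lay above 0, from 0.31 to 1.003 and from 0.27 to 0.92. On day 3 replicate 1 and day 7 replicate 2 all 5 lay below 0, from -0.70 to -0.35 and from -1.13 to -0.16, so the arrays of day 3, and of day 7 for most probe sets, lay on opposite sides. The probe set with the widest swing, 1449731_s_at, stood at 0.30 and -0.25 in control, -0.64 and 0.88 at day 3, 0.03 and -1.13 at day 7, then -0.03 and 0.92 at day 14. The suffix _s_at marks probes shared by several transcripts. The probe set 1448306_at, the only one of the 5 with a RefSeq accession of the gene in the annotation, stood at 0.03 and -0.04 in control, -0.70 and 0.40 at day 3, 0.04 and -0.61 at day 7, then -0.03 and 0.36 at day 14. No time separated from control. Log2 folds over the 5 ran from -0.20 to 0.35 at day 3, from -0.57 to -0.06 at day 7 and from 0.07 to 0.45 at day 14, with standard errors of 0.32 to 0.61 and adjusted p of 0.788 or more in limma.

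*Rela* encodes RelA (p65), the subunit that carries the activating domain of the common NF-κB dimer. Its probe set 1419536_a_at stood at 0.03 and -0.05 in control, -0.34 and 0.46 at day 3, 0.00 and -0.43 at day 7, then 0.00 and 0.47 at day 14. The order of the arrays resembled that of *Nfkbia*, with both outlying arrays high and day 3 replicate 1 and day 7 replicate 2 low. The log2 fold was 0.07 ± 0.30 at day 3, -0.21 ± 0.30 at day 7 and 0.24 ± 0.30 at day 14 (adjusted p of 0.834 to 1 in limma), each smaller than its standard error. The 95% interval at day 14 ran from -0.48 to 0.96.

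*Tlr2*, a receptor for bacterial lipoproteins, stood at -0.17 and 0.08 in control, -0.19 and 0.42 at day 3, -0.30 and 0.12 at day 7, then -0.08 and 0.37 at day 14 (1419132_at). The second replicate was the higher of the 2 arrays at every time, and no time separated from control. The log2 fold was 0.16, -0.05 and 0.19 at the 3 times (standard error 0.27, adjusted p of 0.855 to 1 in limma).

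*Tlr4*, the endotoxin receptor, had 4 probe sets that did not follow each other, with Pearson's r between -0.21 and 0.42 in the 6 pairs over 8 arrays. Its probe set 1430695_at stood at -0.18 and -0.17 in control, 0.03 and -0.03 at day 3, -0.06 and 0.10 at day 7, then 0.16 and 0.07 at day 14. Both arrays of day 3, of day 7 and of day 14 lay above both control arrays, the only member probe set of which this held, and the whole range was 0.33. The log2 fold was 0.17 ± 0.13 at day 3, 0.19 ± 0.13 at day 7 and 0.29 ± 0.13 at day 14 (adjusted p of 0.623 to 1 in limma, unadjusted p = 0.0628 at day 14). The probe set 1418162_at stood at 0.20 and 0.28 on the outlying arrays and between -0.23 and 0.06 on the others. For 1418163_at, the highest values were those of day 3 replicate 1 (0.26) and day 14 replicate 1 (0.24), and for 1442827_at all 8 values lay within 0.19 of each other, a swing at percentile 1.22 of the SD of all probe sets.

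*Cd14* and *Ly96*, which encode the proteins that present endotoxin to the *Tlr4* receptor, differed from each other. *Cd14* (1417268_at) stood at -0.01 and -0.24 in control, 0.01 and 0.33 at day 3, -0.05 and -0.79 at day 7, then 0.12 and 0.79 at day 14. Both arrays of day 3 and of day 14 lay above both control arrays, by a small margin for the first replicates. The log2 fold was 0.58 ± 0.31 at day 14 (adjusted p = 0.66), 0.29 ± 0.31 at day 3 (adjusted p = 0.757) and -0.30 ± 0.31 at day 7 (adjusted p = 1, all in limma). With 1 array left out at a time it ran from 0.25, without day 14 replicate 2, to 0.91 at day 14, and from 0.13, without day 3 replicate 2, to 0.45 at day 3. *Ly96* (1449874_at) stood at 0.01 and -0.25 in control, 0.01 and -0.01 at day 3, 0.17 and -0.22 at day 7, then -0.30 and 0.08 at day 14. Its day 3, day 7 and day 14 arrays all overlapped those of control, with log2 folds of 0.12, 0.09 and 0.01 (standard error 0.20, adjusted p of 0.857 to 1 in limma). At day 14 its 95% interval ran from -0.47 to 0.49.

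*Myd88*, the adaptor of most Toll-like receptors, had control arrays close to each other, at -0.04 and 0.04 (1419272_at). It stood at -0.33 and 0.32 at day 3, -0.23 and -0.26 at day 7, then 0.18 and 0.53 at day 14. Day 7 lay below both control arrays and day 14 above both, whereas the day 3 arrays lay on either side. The log2 fold was -0.0027 ± 0.23 at day 3 (adjusted p = 0.998), -0.24 ± 0.23 at day 7 (adjusted p = 1) and 0.36 ± 0.23 at day 14 (adjusted p = 0.702 in limma), and with 1 array left out at a time the day 14 fold ran from 0.18 to 0.53.

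*Tollip*, which binds the receptor domain and restrains signaling, was measured by 2 probe sets that disagreed. The probe set 1423048_a_at, whose suffix marks probes shared by several transcripts of a gene, stood at -0.11 and 1.005 in control, 0.11 and -1.43 at day 3, -0.39 and 2.05 at day 7, then 0.35 and -1.19 at day 14. It was the 1 member with its 2 lowest values on the outlying arrays, and the second replicates of control and day 7 were its highest. The probe set 1423047_at stood at 0.01 and -0.02 in control, -1.05 and 0.28 at day 3, 0.01 and -0.01 at day 7, then -0.01 and 0.30 at day 14. It had its 2 highest values on the outlying arrays and was low on day 3 replicate 1 alone. The first probe set minus the second ran from -1.71 on day 3 replicate 2 to 2.05 on day 7 replicate 2, and the pair had a Pearson's r of -0.27 over 8 arrays. The log2 fold of 1423048_a_at was -1.11 ± 0.95 at day 3 (adjusted p = 0.698), 0.38 ± 0.95 at day 7 (adjusted p = 1) and -0.87 ± 0.95 at day 14 (adjusted p = 0.81, all in limma). Without day 3 replicate 2 the day 3 fold was -0.33 and without day 14 replicate 2 the day 14 fold was -0.099, against -1.88 and -1.64 without the first replicates, and without control replicate 2 they were -0.55 and -0.31. It was the 1 member among the 1.10% of probe sets 2-fold or more lower at day 3, and 0 members were among the 1.84% so at day 14. For 1423047_at the folds were -0.38, 0.01 and 0.16 (standard error 0.39, adjusted p of 0.747 to 1 in limma). At each of these times, for both probe sets, the gap between the 2 arrays was wider than the difference of their mean from control.

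**Figure D3:**
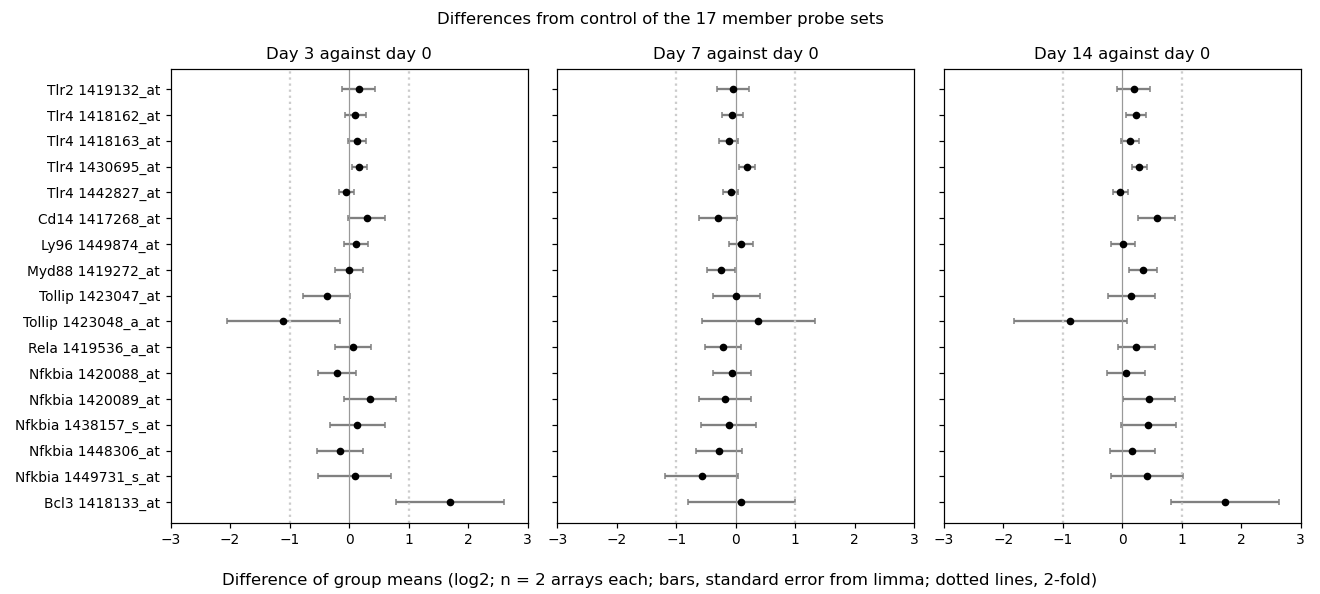
Difference of group means from control (x axis, log2) of the 17 member probe sets (rows) at day 3, day 7 and day 14 (n = 2 arrays each; bars, standard error from limma; dotted lines, 2-fold). *Bcl3* lies beyond the 2-fold line at day 3 and day 14 and near 0 at day 7, and *Tollip* 1423048_a_at lies beyond it on the other side at day 3.

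The comparisons between times ask whether the members differed between the early and the late phase of exposure. Of the 17 probe sets, 15 were higher at day 14 than at day 7, 57.6% of all probe sets being so, and 7 had both day 14 arrays above both day 7 arrays (28.0% of all). The member median was 0.29 and that of all probe sets 0.05. An unadjusted p under 0.05 in limma was reached by *Cd14* (0.88 ± 0.31, adjusted p = 0.453) and *Myd88* (0.60 ± 0.23, adjusted p = 0.473), where 10.3% of all probe sets reached it. *Bcl3* differed by 1.63 ± 0.90 (adjusted p = 0.562 in limma) and was the 1 member 2-fold higher (0.537% of all), while *Tollip* 1423048_a_at was the 1 member 2-fold lower (2.95%). No member had both day 14 arrays below both day 7 arrays (16.7% of all). Between day 7 and day 3, 4 of the 17 were higher at day 7 (45.3% of all) with a median of -0.20, and *Bcl3* differed by -1.60 (adjusted p of 0.501 or more for every member in limma). *Bcl3* was the 1 member 2-fold lower at day 7 (1.06% of all) and *Tollip* 1423048_a_at the 1 member 2-fold higher (1.98%). Both day 7 arrays lay below both day 3 arrays for 3 members (24.1% of all) and above them for 0 (16.5%), and 0 had an unadjusted p under 0.05 in limma (12.1%). Between day 14 and day 3, 16 of the 17 were higher at day 14 (50.4% of all) with a median of 0.17, and the lowest adjusted p was 0.998 in limma. Both day 14 arrays lay above both day 3 arrays for 1 member (13.0% of all) and below them for 0 (13.1%), and 0 had an unadjusted p under 0.05 in limma (2.67%) or a 2-fold difference (0.304% higher and 0.111% lower). These comparisons share arrays with each other and with those against control. The 17 probe sets measure 9 genes, and the 5 of *Nfkbia* varied together, so the counts are not of independent members.

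Without the 2 outlying arrays the members looked different. Day 3 then rested on replicate 1, whose SD over all probe sets (0.41) was above that of the day 3 array left out (0.34). At day 3, where day 3 replicate 1 alone remained, 11 of 17 lay below the control mean (47.8% of all probe sets) and 9 lay below both control arrays (37.3%), while 4 lay above both (41.0%), with a median of -0.32 against 0.10 on all arrays. The members below both were *Tlr2*, *Myd88*, *Tollip* 1423047_at, *Rela* and the 5 probe sets of *Nfkbia*. At day 14, where day 14 replicate 1 alone remained, 10 of 17 lay above the control mean (55.0% of all) and 6 above both control arrays (38.4%), while 2 lay below both (30.3%), with a median of 0.01 against 0.23. The 6 were *Bcl3*, *Cd14*, *Myd88* and *Tlr4* 1418162_at, 1418163_at and 1430695_at, the same probe sets that had both day 14 arrays above both control arrays. Their place here was fixed in advance, since leaving out a day 14 array cannot undo that order. The day 3 log2 difference of *Tollip* 1423047_at was then -1.05, a value that rests on day 3 replicate 1 alone.

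**Figure D4:**
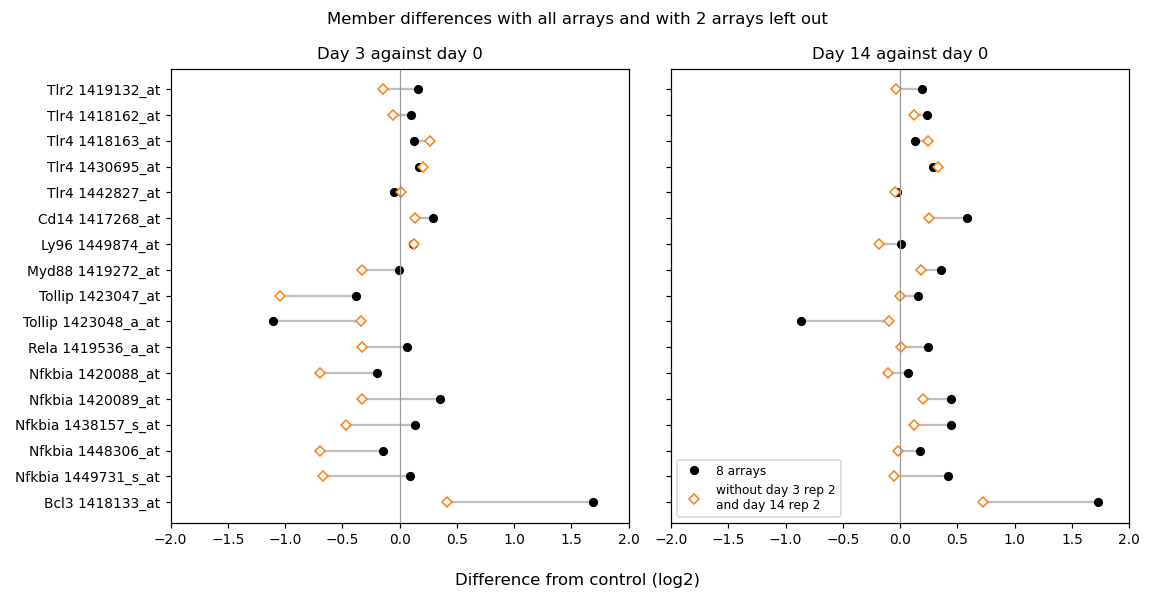
Difference from control (x axis, log2) of the 17 member probe sets (rows) at day 3 and day 14 with all 8 arrays (filled circles) and with day 3 replicate 2 and day 14 replicate 2 left out (open diamonds). *Bcl3* moves to 0.41 at day 3 and 0.72 at day 14, and the 5 *Nfkbia* probe sets lie below 0 at day 3.

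Other genes of the pathway were taken as 5 lists, of which 82 of 88 genes were measured by 154 probe sets. In limma 0 of the 154 passed at any time against control, and an unadjusted p under 0.05 in limma was reached by 5 higher and 2 lower at day 3, 0 at day 7, and 9 higher and 2 lower at day 14, where 10.3%, 0.864% and 8.27% of all probe sets reached it in either direction. On the outlying arrays 46 of the 154 had their 2 highest and 11 their 2 lowest values (16.0% and 9.59% of all probe sets). Of the 41 probe sets of inflammatory target genes of NF-κB, 37 were higher at day 3 (55.4% of all probe sets), 24 at day 7 (49.3%) and 37 at day 14 (58.0%), with a median of 0.28 at day 3 and 0.24 at day 14, against 0.04 and 0.05 over all probe sets. Both arrays lay above both control arrays for 23 of them at day 3 (24.7% of all) and 29 at day 14 (27.7%). Genes named from each list were, unless stated otherwise, those with the smallest unadjusted p in limma at day 3 or day 14. They are therefore not typical of their list. Among these 41 probe sets *Junb*, a subunit of AP-1, had 0.9999 ± 0.37 at day 3 and 1.14 ± 0.37 at day 14. *Cebpb*, a transcription factor of inflammation, had 0.99 ± 0.39 and 1.05 ± 0.39, and *Icam1*, an adhesion molecule, had 0.35 ± 0.20 and 0.57 ± 0.20. *Cxcl1*, a chemokine, had 0.41 ± 0.17 and 0.43 ± 0.17. The adjusted p of these genes at day 14 was 0.522 to 0.59. On the arrays, 18 of the 41 probe sets had their 2 highest values on the outlying arrays.

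Of the 30 probe sets of further receptors and accessory proteins, 25 were higher at day 3 and 23 at day 14 (55.4% and 58.0% of all probe sets). *Ly86*, which partners CD180, had 2.02 ± 0.71 and 1.63 ± 0.71, and stood at 2.03 and 2.10 on the outlying arrays and at 0.94 on day 3 replicate 1. *Tlr7*, *Cd180*, *Lbp* and *Tnfrsf1b* had 0.24 to 0.41 at day 14. The 12 probe sets of other NF-κB and IκB proteins had 9 higher at day 3 and 10 at day 14 (55.4% and 58.0% of all). *Nfkbie*, another IκB protein, stood at 1.83 and 1.82 on the outlying arrays and between -0.52 and 0.03 on the others, close in form to *Bcl3*, with 0.73 ± 0.83 at day 3 and 0.98 ± 0.83 at day 14. *Relb*, *Nfkb2* and *Nfkbib* had 0.45 to 0.51 at day 14, and *Nfkbiz* had -0.24.

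The 30 probe sets of negative feedback genes had 17 higher at day 3 and 18 at day 14, near the 55.4% and 58.0% of all probe sets. *Socs3*, an inhibitor of cytokine signaling, had 1.70 ± 0.93 and 1.99 ± 0.93, *Usp18* had 0.72 ± 0.44 and 1.001 ± 0.44, and *Sigirr*, *Pdlim2* and *Il1rn* had 0.28 to 0.58 at day 14. *Tnfaip3*, which encodes the ubiquitin-editing enzyme A20 and was singled out after its values were seen, resembled *Tollip* 1423048_a_at, with -1.94 and -1.83 on the outlying arrays and 0.67 and 1.06 on the second replicates of control and day 7. The 41 probe sets of adaptors and kinases had 16 higher at day 3 and 22 at day 14 (55.4% and 58.0% of all). *Tab2* and *Tab3*, partners of the kinase TAK1, were lower at both times, with -0.85 ± 0.28 and -0.57 ± 0.21 at day 3 and -0.81 ± 0.28 and -0.94 ± 0.21 at day 14, while *Ticam1* and *Ikbke* had 0.26 and 0.44 at day 3. The adjusted p of *Tab3* at day 14 was 0.412, the lowest of the 154 probe sets at that time in limma.

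The genes whose pattern was most like that of a member were sought for the 3 members with the largest SD, by Pearson's r over the 8 arrays, as a description. For *Bcl3* they were *4930470P17Rik*, *Timp1* and *Lnx1* (r of 0.991 to 0.992, and 0.809 to 0.964 over the other 6 arrays). *Timp1*, an inhibitor of matrix proteases, stood at 2.80 and 2.65 on the outlying arrays. For *Tollip* 1423048_a_at they were *Errfi1*, *Mgrn1* and *Dgke* (0.994 to 0.996, and 0.988 to 0.995 over the other 6), and for *Nfkbia* 1449731_s_at they were *Zdhhc14*, *Mfsd13a* and *Odc1* (0.993 to 0.998, and 0.986 to 0.998 over the other 6).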

How the data were processed

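RNA of pooled mouse retinas was measured on 8 Affymetrix mouse arrays, 2 for each of 4 times, and arrays were grouped by the day in their titles. The authors deposited log2 expression from RMA, a name taken from the submitters' processing notes (its version is not given in the sources used here), whereas the study's methods describe MAS5 signals. Every probe set has a median of 0 across arrays. No source used here describes this centring, which removes the level of expression. The table held 45101 probe sets, of which 64 controls were left out of the tests. Of the 45037 tested, 34945 named 1 gene, 932 several and 9160 none in the platform annotation. The number of arrays limits the precision.

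Group means were fitted to all 8 arrays with limma 3.58.1 in R 4.3.3, with 6 contrasts, moderated variances (residual df 4, prior df 2.71) and Benjamini-Hochberg adjustment over all 45037 probe sets at 0.05. An SE is that of the fitted difference. The fit was tested on simulated data with independent noise in every value. Those data hold no pattern shared across probe sets, such as that of the outlying arrays, so the test does not bear on it. The named genes were all members, the 3 genes of each pathway list with the smallest unadjusted p at day 3 and at day 14 against control (1 probe set a gene, that of the largest SD), and the 3 genes nearest to each of the 3 most variable members. The members and lists were chosen with earlier results of these data known. Promoter windows came from RefSeq (GRCm38.p6) and were searched with Python 3.11.15 and pandas 2.3.3, and plots were drawn with matplotlib 3.10.9. As alternatives, gene means, robust eBayes, the replicate number as a block, a one-way ANOVA that omits the cross gene error model named in the methods, fits of only the groups compared, scaling to array medians or by quantiles, each array left out in turn, and both outlying arrays left out were tried.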

Additional observations from a re-analysis of the deposited data

Results flagged for a closer look

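For 2 of the 17 member probe sets (2.70% of all probe sets) the control arrays separated day 7 from day 14, with each day 7 array lower and each day 14 array higher than either of them, so that the differences from control had opposite signs at the 2 times. *Myd88* 1419272_at differed by 0.60 on the log2 scale between day 14 and day 7 (unadjusted p = 0.0392, adjusted p = 0.473 in limma). *Tlr4* 1418163_at differed by 0.25 (unadjusted p = 0.142, adjusted p = 0.586 in limma). Neither passed after adjustment.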

How the results depend on the processing

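In 16 settings, no member and no pathway probe set was called after adjustment, and the lowest adjusted p of a member against control was 0.0922, for *Tollip* 1423047_at at day 3 without day 3 replicate 2. By a plain one-way ANOVA that omits the cross gene error model named in the methods, 1 member probe set had an unadjusted p under 0.05 at each time (6.65%, 3.03% and 7.23% of all probe sets at day 3, day 7 and day 14), *Tlr4* 1430695_at at day 3 (0.0255) and day 14 (0.0201) and *Myd88* at day 7 (0.0302), 0 of them with a 2-fold difference. With the replicate block 0 members and 0 probe sets in all were called. The deviations of arrays with the same number correlated at -0.40 to 0.55 over 6 pairs of times. The study describes its arrays as 2 experiments, the labels do not tie their numbers to these, and the correlations do not settle whether the numbers pair the arrays. A filter on dim probe sets was not run, since the values hold no level. With 2 arrays a time, and no level to show which probe sets lie near background, differences smaller than the intervals given cannot be seen.

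Of 408 values for the 51 member differences from control under settings other than 1 array left out, 23 had the opposite sign, and where the setting leaves out arrays or averages probe sets its construction gives the cause. The replicate block, robust eBayes, the ANOVA and the fits of only the groups compared keep the same difference of means. Their signs could not turn, so the share of 408 is no measure of stability. With both outlying arrays left out, 9 members lay below both control arrays at day 3 (37.3% of all probe sets) and 2 at day 14 (30.3%), 1 was 2-fold apart at day 3 and 0 at day 14, and the median at day 3 was -0.32. The log2 fold at day 3 was then -0.15 for *Tlr2*, -0.056 for *Tlr4* 1418162_at, 0.013 for *Tlr4* 1442827_at, -0.33 for *Rela*, and -0.32, -0.47 and -0.67 for *Nfkbia* 1420089_at, 1438157_s_at and 1449731_s_at. At day 14 it was -0.038 for *Tlr2*, -0.18 for *Ly96*, and -0.11, -0.023 and -0.055 for *Nfkbia* 1420088_at, 1448306_at and 1449731_s_at. With gene means, 1 gene lay below both control arrays at day 3 and 1 was 2-fold apart, and at day 7 0 lay above and 1 below. The gene means of *Tlr4* gave 0.090 at day 3, -0.016 at day 7 and 0.16 at day 14, opposite to 1442827_at at day 3 and day 14 and to 1430695_at at day 7. That of *Nfkbia* was 0.047 at day 3, opposite to 1420088_at and 1448306_at, and that of *Tollip* was -0.36 at day 14, opposite to 1423047_at. With a further quantile normalization 1 member was 2-fold apart at day 3, and the log2 fold was 0.030 for *Myd88* at day 3, -0.26 for *Tollip* 1423048_a_at at day 7, and -0.064 for *Ly96* and -0.00484 for *Nfkbia* 1420088_at at day 14. With each array's median subtracted, *Ly96* had -0.017 at day 14. For these 2 scalings the cause was not tested.

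With 1 array left out at a time, a lone array being assumed to vary like the other groups, 0 members were called in limma in any of these fits. Counts above or below the control arrays cannot fall when an array is left out. The low end of each such range is therefore the count on all arrays and is no measure of stability. At day 3 against control these fits gave 3 to 13 members above both control arrays, 0 to 9 members below both control arrays, 1 to 3 members 2-fold apart and -0.32 to 0.32 for the median log2 fold. The log2 fold at day 3 ran from -0.15 to 0.46 for *Tlr2* 1419132_at, -0.056 to 0.26 for *Tlr4* 1418162_at, -0.00253 to 0.26 for *Tlr4* 1418163_at, -0.13 to 0.033 for *Tlr4* 1442827_at, -0.014 to 0.25 for *Ly96* 1449874_at, -0.33 to 0.32 for *Myd88* 1419272_at, -1.05 to 0.29 for *Tollip* 1423047_at, -0.33 to 0.47 for *Rela* 1419536_a_at, -0.69 to 0.30 for *Nfkbia* 1420088_at, -0.32 to 1.03 for *Nfkbia* 1420089_at, -0.47 to 0.74 for *Nfkbia* 1438157_s_at, -0.70 to 0.40 for *Nfkbia* 1448306_at and -0.67 to 0.85 for *Nfkbia* 1449731_s_at. At day 7 against control these fits gave 1 to 5 members above both control arrays, 2 to 9 members below both control arrays and 0 to 2 members 2-fold apart. The log2 fold at day 7 ran from -0.25 to 0.16 for *Tlr2* 1419132_at, -0.17 to 0.056 for *Tlr4* 1418162_at, -0.66 to 0.074 for *Cd14* 1417268_at, -0.10 to 0.29 for *Ly96* 1449874_at, -0.00253 to 0.023 for *Tollip* 1423047_at, -0.84 to 1.60 for *Tollip* 1423048_a_at, -0.42 to 0.00857 for *Rela* 1419536_a_at, -0.17 to 0.051 for *Nfkbia* 1420088_at, -0.46 to 0.10 for *Nfkbia* 1420089_at, -0.54 to 0.31 for *Nfkbia* 1438157_s_at, -0.60 to 0.045 for *Nfkbia* 1448306_at, -1.15 to 0.00453 for *Nfkbia* 1449731_s_at and -0.059 to 0.25 for *Bcl3* 1418133_at. At day 14 against control these fits gave 6 to 15 members above both control arrays, 0 to 2 members below both control arrays and 0 to 2 members 2-fold apart. The log2 fold at day 14 ran from -0.038 to 0.42 for *Tlr2* 1419132_at, -0.11 to 0.051 for *Tlr4* 1442827_at, -0.18 to 0.20 for *Ly96* 1449874_at, -0.11 to 0.25 for *Nfkbia* 1420088_at, -0.023 to 0.36 for *Nfkbia* 1448306_at and -0.055 to 0.89 for *Nfkbia* 1449731_s_at. The highest counts above both control arrays were 13 when day 3 replicate 1 was dropped (45.4% of all probe sets), 5 for day 7 replicate 2 (30.9%) and 15 for day 14 replicate 1 (47.8%). The highest below were 9 when day 3 replicate 2 was dropped (37.3%), 9 for day 7 replicate 1 (39.3%) and 2 for day 14 replicate 2 (30.3%). Dropping control replicate 1 gave 13 above at day 14 (43.6%), and dropping control replicate 2 gave 8 below at day 7 (33.5%).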
